A study of Rattus norvegicus with 12 samples.

Results

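Inhibition in hippocampal area CA1 comes from GABAergic interneurons, which lie in and around the layer of excitatory pyramidal cell bodies. They make the transmitter GABA from glutamate, load it into vesicles and release it onto pyramidal cells. Basket cells that contain parvalbumin and basket cells that carry the cannabinoid receptor both wrap pyramidal cell bodies with their terminals. Described here are 5 genes of these cells, given as a fixed list of identifiers: Gad1 (ENSRNOG00000000007), Gad2 (ENSRNOG00000018200), Slc32a1 (ENSRNOG00000015393), Pvalb (ENSRNOG00000006471) and Cnr1 (ENSRNOG00000008223). Each of the 5 had a row among the 32662 Ensembl identifiers of the count tables, and all 5 passed the filter on low counts in every comparison. Their symbols came with the list of identifiers, since the count tables themselves hold none.

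RNA was sequenced from adult male Wistar rats labelled as 45 to 50 days old and 180 to 200 g. Deep and superficial strips of the CA1 pyramidal layer were cut out of 20 µm sections by laser, aiming at cell bodies. Superficial epileptic, deep epileptic, superficial control and deep control libraries numbered 3 each, and each of the 6 rats gave both sublayers. Epileptic rats had been given hourly kainate, a glutamate receptor agonist, at 5 mg/kg until status epilepticus, then diazepam at 4 mg/kg. They were sampled 6 to 8 weeks after status epilepticus. The labelled age and weight are the same for all rats and, given these weeks, cannot be taken as those at sampling. Control rats received saline or DMSO as vehicle and otherwise similar handling, and had no seizures. Seizures of the epileptic animals were seen on handling, or by recording in some of them, per the labels' protocols. The regions contain other cells besides pyramidal cells, and markers of those cells could not be looked up, because no other identifier could be paired with a gene name. In such bulk tissue, fewer interneurons and less RNA per interneuron cannot be told apart.

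The libraries held 20623196 to 25893962 gene counts in epileptic rats and 16135358 to 19550582 in control rats. A single identifier took 11.0 to 22.8% of these counts in epileptic and 8.24 to 13.0% in control libraries. Alignments that were not unique made up 37.9 to 45.6% of all alignments in epileptic rats 2 and 3. They made up 25.2 and 30.6% in epileptic rat 1 and 25.9 to 34.8% in control rats. Alignments that the read counting assigned to no annotated feature are called the share outside exons here. Strand use is not given, so this share may include exonic reads of the other strand. It made up 22.3 to 43.0% of all alignments in epileptic libraries and 35.8 to 44.0% in control libraries. Epileptic rat 1 lay at 37.7 and 43.0% and epileptic rats 2 and 3 at 22.3 to 26.7%. On the first principal component of all genes (50.6% of the variance), epileptic rat 1 lay at −15.7 and −12.7, within the controls at −36.6 to −11.9, while rats 2 and 3 lay at 22.0 to 71.4. On the second (14.0% of the variance), rat 1 lay at −30.7 and −30.4 and rat 2 at −18.8 and −18.4, apart from the controls at 6.82 to 17.1, and rat 3 lay among them at 13.9 and 13.0. The part of these library differences in the results below was examined only through a fit that takes the share outside exons as covariate. Among epileptic rats, only rat 1 had shares within the control range. In the epilepsy tests that fit thus separates share from condition mainly through this rat. The 5 genes had 320 to 8315 reads per library. Levels are given as CPM, counts scaled by the TMM-adjusted library size. They are not corrected for gene length, so levels of different genes are not compared.

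**Figure D1:**
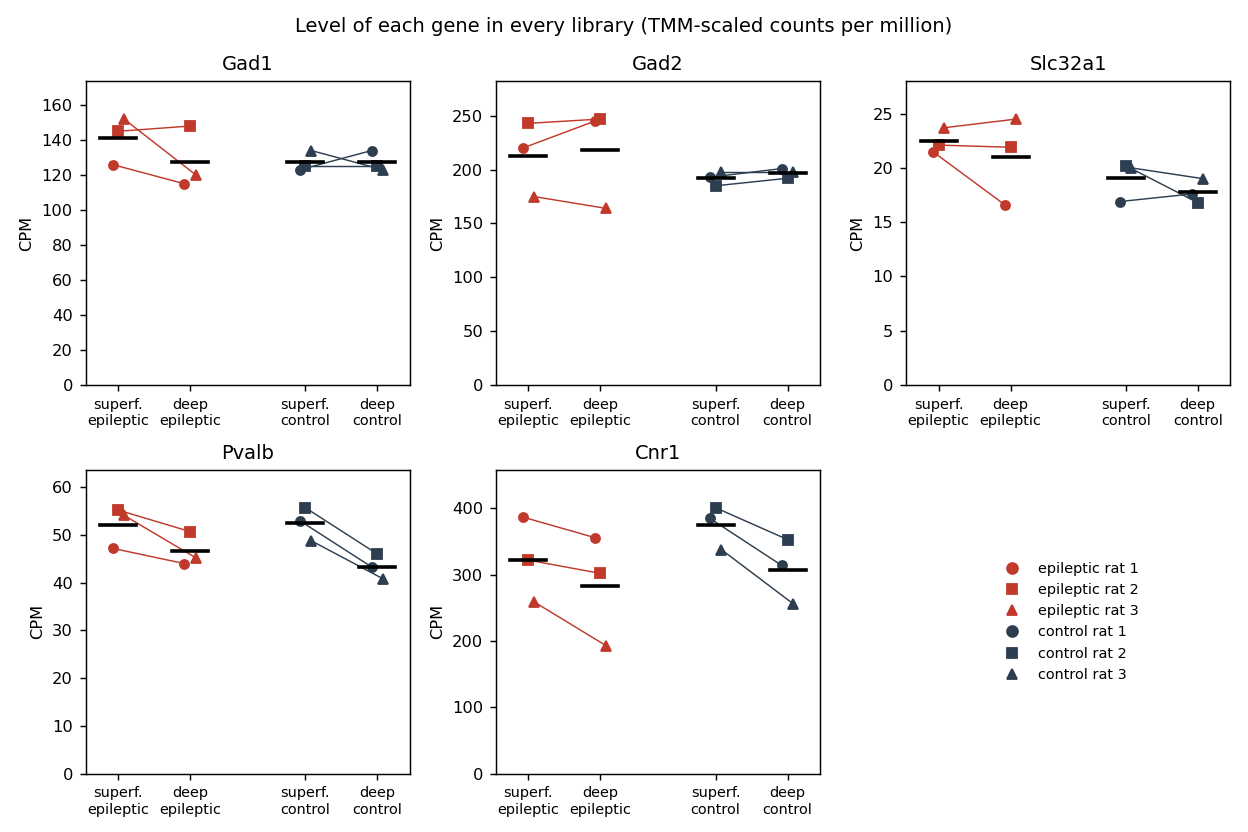
CPM of each gene in every library, on axes that start at 0, with a line joining the superficial and the deep library of each rat and a black bar at the mean of the 3 rats. Pvalb and Cnr1 slope down from superficial to deep in all 6 rats, and the epileptic rats lie farther apart than the controls for Gad2.

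Pvalb and Cnr1 were the members that differed between the sublayers: both were about 1.2-fold higher in superficial than in deep CA1 of control rats. Gad1, Gad2 and Slc32a1, which serve GABA synthesis and packaging in all GABAergic cells, did not pass the test. Called members thus numbered 2 of 5 in control rats, both higher in superficial CA1. Of all 14791 identifiers tested, 8.44% were called in either direction and 4.26% in that direction, and 22.8% lay at an unadjusted p below 0.05.

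Pvalb encodes parvalbumin, the calcium-binding protein of fast-spiking basket and axo-axonic cells. In control rats 1, 2 and 3 it had 53.0, 55.7 and 48.8 CPM in superficial libraries, against 43.3, 46.0 and 40.8 CPM in deep libraries. Every superficial control library lay above every deep one. The fold of superficial over deep was 1.20 (95% interval 1.10 to 1.32; log2 fold change 0.27, SE 0.06; adjusted p = 0.01171 by edgeR's quasi-likelihood test with each rat as a block). Within rats the log2 difference was 0.29, 0.28 and 0.24 (mean 0.27 ± 0.02, SD, n = 3). The call was lost without control rat 1, 2 or 3 (adjusted p = 0.1089, 0.0862 and 0.08214), although the log2 fold change stayed at 0.26 to 0.28. Without the rat as a block the adjusted p was 0.4623.

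Cnr1 encodes the cannabinoid receptor that holds back transmitter release from axon terminals. In the hippocampus it is strongest in cholecystokinin-containing basket cells, and pyramidal cells carry it at a lower level, so its reads here may come from either. In control rats 1, 2 and 3 it had 385, 401 and 338 CPM in superficial libraries, against 314, 353 and 256 CPM in deep libraries. The 2 groups overlapped, because the superficial library of control rat 3 lay below the deep library of control rat 2, but superficial exceeded deep in each rat. Superficial over deep was 1.21-fold (95% interval 1.11 to 1.33; log2 fold change 0.28, SE 0.06; adjusted p = 0.01172, edgeR). The call was lost without control rat 1 or control rat 3 (adjusted p = 0.09884 and 0.1621), with the rat as a random effect in limma-voom (0.1581) and without the rat as a block (0.8608), while the log2 fold change in these fits was 0.23 to 0.28. Over the alternatives that kept all animals the adjusted p ranged from 8.89e-06 to 0.8608.

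The genes shared by GABAergic cells showed smaller differences in control rats. Gad1, for a glutamate decarboxylase made throughout interneurons, had 123, 125 and 134 CPM in superficial libraries of rats 1, 2 and 3, against 134, 125 and 123 CPM in deep libraries (fold 0.993, 95% interval 0.898 to 1.10). Gad2, for the glutamate decarboxylase concentrated at nerve terminals, had 193, 185 and 198 CPM in superficial libraries, against 201, 192 and 198 CPM in deep libraries (fold 0.967, interval 0.894 to 1.05). Slc32a1, the vesicular GABA transporter, had 16.9, 20.2 and 20.0 CPM in superficial libraries, against 17.6, 16.8 and 19.0 CPM in deep libraries (fold 1.06, interval 0.923 to 1.23). The groups overlapped for all 3 genes, and their intervals leave room for differences of up to 1.10-, 1.05- and 1.23-fold in the superficial direction.

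In epileptic rats, 0 of the 5 genes passed the sublayer test with edgeR, where 10.0% of 14791 identifiers were called. At an unadjusted p below 0.05 there were 3 members (Gad1, Pvalb and Cnr1), where 25.9% of all identifiers lay. DESeq2 and both limma-voom fits also called 0. Cnr1 came closest. It had 387, 322 and 259 CPM in superficial libraries of epileptic rats 1, 2 and 3, against 356, 302 and 193 CPM in deep libraries (fold 1.15, 95% interval 1.05 to 1.27, adjusted p = 0.05034, edgeR). Its adjusted p was 0.04943 with RLE scaling, 0.003159 with no low-count filter, 0.00016 with the share outside exons as covariate and 0.0382 without epileptic rat 1. Cnr1 did not pass with an edgeR filter at a minimum count of 50 (0.05212), DESeq2 (0.05531) or limma-voom with sample quality weights (0.06226). Nor did it with only the epileptic libraries (0.1568), with the rat as a random effect in limma-voom (0.2699) or without the rat as a block (0.8805). Without epileptic rat 3, the log2 fold change was 0.10 rather than 0.21 (adjusted p = 0.2736).

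Pvalb had 47.2, 55.2 and 54.1 CPM in superficial epileptic libraries of rats 1, 2 and 3, against 44.0, 50.7 and 45.2 CPM in deep ones (fold 1.12, 95% interval 1.02 to 1.22, adjusted p = 0.1061, edgeR). It was called only with the share outside exons as covariate (adjusted p = 0.01944). Superficial exceeded deep in 6 of 6 rats for Pvalb and for Cnr1, with mean log2 differences of 0.21 ± 0.08 and 0.25 ± 0.14 (SD, n = 6). Of all identifiers tested, 21.5% had 1 direction in all 6 rats. Gad1 was higher in superficial libraries in 3, Slc32a1 in 4 and Gad2 in 1 of the 6 rats.

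Gad1 had 126, 145 and 152 CPM in superficial libraries of epileptic rats 1, 2 and 3, against 115, 148 and 120 CPM in deep ones (fold 1.11, interval 1.00 to 1.23, adjusted p = 0.1734, edgeR). Rat 3 gave most of this, with a log2 difference of 0.35 compared with 0.13 and −0.03 in rats 1 and 2, and without rat 3 the log2 fold change was 0.05. Slc32a1 differed by 0.37, 0.01 and −0.05 within epileptic rats 1, 2 and 3, so that rat 1 alone gave the positive mean. Gad2 differed by −0.16, −0.03 and 0.09.

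**Figure D2:**
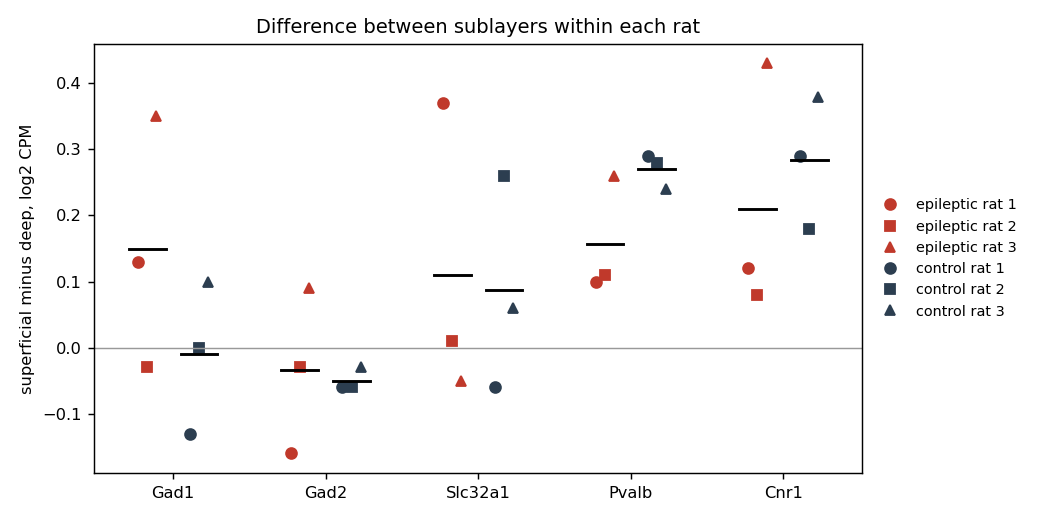
Superficial minus deep difference in log2 CPM within each rat, for each gene, with a black bar at the mean of the 3 rats of a condition. All 6 rats lie above 0 for Pvalb and for Cnr1, while the other 3 genes have rats on both sides of 0.

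Whether the sublayer difference itself changed in epilepsy was tested directly. The difference between the log2 fold changes, epileptic minus control, was −0.11 for Pvalb (SE 0.09, adjusted p = 0.8753) and −0.07 for Cnr1 (SE 0.09, adjusted p = 0.9409) by edgeR. For Gad1 it was 0.16 (SE 0.10, adjusted p = 0.8301), for Gad2 0.014 (SE 0.08) and for Slc32a1 0.016 (SE 0.13). None of the 5 was called by edgeR, with 0 at an unadjusted p below 0.05, nor by DESeq2 or either limma-voom fit. Of all identifiers, 0% were called and 6.60% lay at an unadjusted p below 0.05. The smaller Pvalb fold in epileptic rats is therefore not shown to differ from that in controls. The interval of the difference for Pvalb spanned a ratio of 0.817 to 1.05.

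Between epileptic and control rats, 0 of the 5 genes passed the edgeR test in superficial CA1 and 0 in deep CA1. Of all identifiers, 0.0140% of 14321 were called in superficial and 0% of 14261 in deep CA1. DESeq2, limma-voom with sample quality weights and limma-voom with the rat as a random effect also called 0 of the 5. Members at an unadjusted p below 0.05 numbered 1 in superficial and 0 in deep CA1, where 18.9 and 13.7% of all identifiers lay. The median log2 fold change of the 5 was 0.17 in superficial and 0.11 in deep CA1, against 0.00684 and 0.00093 over all identifiers. In absolute size the medians were 0.18 and 0.12 for the 5 genes and 0.18 and 0.15 for all identifiers.

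Slc32a1 was the member at an unadjusted p below 0.05. In superficial CA1 it had 21.5, 22.1 and 23.7 CPM in epileptic rats 1, 2 and 3, against 16.9, 20.2 and 20.0 CPM in control rats. The groups did not overlap, as was so for 1 of the 5 members and for 24.7% of all identifiers in superficial CA1 (in deep CA1, 0 of 5 and 18.7%). Epileptic over control was 1.20-fold (95% interval 1.01 to 1.43; log2 fold change 0.26, SE 0.11; unadjusted p = 0.04156, adjusted p = 0.2514, edgeR). In deep CA1 it had 16.6, 21.9 and 24.5 CPM in epileptic rats, against 17.6, 16.8 and 19.0 CPM in control rats. There epileptic rat 1 lay below all controls and the other two above them (fold 1.18, interval 0.931 to 1.50, adjusted p = 0.5136, edgeR). With the share outside exons as covariate the log2 fold change was 0.13 in superficial and −0.08 in deep CA1.

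Gad2 was higher than every control in epileptic rats 1 and 2 and lower than every control in epileptic rat 3, in both sublayers. Superficial libraries of epileptic rats 1, 2 and 3 had 220, 243 and 175 CPM, against 193, 185 and 198 CPM in control rats (fold 1.13, 95% interval 0.936 to 1.35, adjusted p = 0.4365, edgeR). Deep libraries had 245, 247 and 164 CPM in epileptic rats, against 201, 192 and 198 CPM in control rats (fold 1.11, interval 0.880 to 1.41, adjusted p = 0.6903). With the share outside exons as covariate the log2 fold change was 0.37 rather than 0.15 in deep CA1, and with sample quality weights (limma-voom) it was 0.30 in superficial and 0.26 in deep CA1. Without epileptic rat 2 it was 0.07 and 0.06, and without epileptic rat 3 it was 0.28 and 0.32, again in superficial and deep CA1. Without epileptic rat 1 it was 0.07 in deep CA1. Gad2 passed the adjusted threshold in none of these fits. The coefficient of variation of Gad2 between rats was 16.4% in superficial and 21.6% in deep epileptic libraries, against 3.42 and 2.41% in control libraries. Over all identifiers its median was 14.1 and 14.6% in epileptic libraries, against 8.74 and 9.32% in control libraries. Gad2 thus stood at the 58.0th and 68.8th percentile of variability in epileptic rats and at the 12.5th and 6.91st in controls. The difference in spread between the conditions was not tested.

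Gad1 did not follow this pattern. In superficial CA1 it had 126, 145 and 152 CPM in epileptic rats 1, 2 and 3, against 123, 125 and 134 CPM in control rats (fold 1.13, 95% interval 0.966 to 1.32, adjusted p = 0.3509, edgeR). In deep CA1 the epileptic rats had 115, 148 and 120 CPM, against 134, 125 and 123 CPM in control rats (log2 fold change 0.0031, SE 0.11, adjusted p = 0.9943). Rat 2 lay above and the other two epileptic rats below all deep controls. With the share outside exons as covariate the log2 fold change in superficial CA1 was 0.0020 rather than 0.18.

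Pvalb levels in epileptic rats lay close to those in controls. Its fold of epileptic over control was 1.01 in superficial CA1 (95% interval 0.866 to 1.18, adjusted p = 0.9405, edgeR) and 1.08 in deep CA1 (interval 0.923 to 1.26, adjusted p = 0.6661). The intervals leave room for a fold as low as 0.866 and as high as 1.26. With the share outside exons as covariate the log2 fold change in superficial CA1 was −0.18 rather than 0.016. The coefficient of variation between epileptic rats was 8.35 and 7.67% in superficial and deep libraries, and 6.62 and 5.98% between control rats.

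Cnr1 varied most between epileptic rats among the 5 genes, by 19.8% in superficial and 29.1% in deep libraries, compared with 8.78 and 15.8% in control libraries. Among all identifiers this put it at the 66.2nd and 79.8th percentile in epileptic and at the 50.3rd and 73.1st in control libraries. Its mean was 323 ± 63.8 CPM in superficial epileptic libraries and 374 ± 32.9 CPM in superficial control libraries (SD, n = 3 each). In deep libraries it was 284 ± 82.6 CPM in epileptic and 308 ± 48.8 CPM in control rats. Averaged over both sublayers, epileptic rats 1, 2 and 3 had 371, 312 and 226 CPM, and control rats 1, 2 and 3 had 349, 377 and 297 CPM. Epileptic rat 3 was thus the lowest of the 6 and epileptic rat 1 the second highest. The fold was 0.875 in superficial CA1 (interval 0.701 to 1.09, adjusted p = 0.4667, edgeR) and 0.923 in deep CA1 (interval 0.662 to 1.29, adjusted p = 0.8471). The direction in deep CA1 turned without epileptic rat 3 (log2 fold change 0.10) and with the share outside exons as covariate (0.20), a fit that gave 0.016 in superficial CA1.

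**Figure D3:**
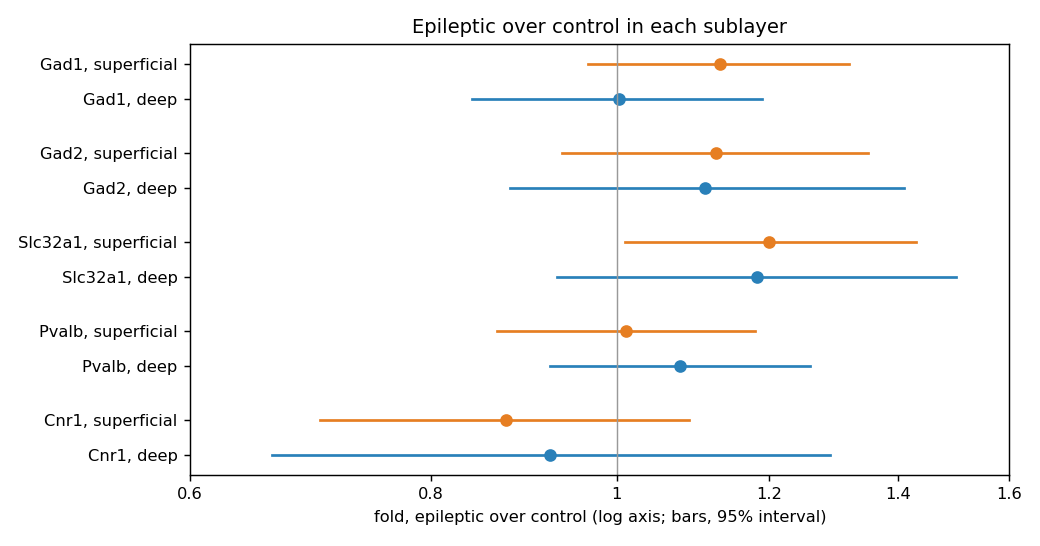
Fold of epileptic over control for each gene in superficial (orange) and deep (blue) CA1 on a log axis, with the 95% interval from edgeR's quasi-likelihood fit of 3 against 3 rats. The interval for Slc32a1 in superficial CA1 (1.01 to 1.43) lies above 1 before adjustment, and the other 9 include 1.

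Ordered by mean, the 4 groups stood as follows. For Pvalb, superficial control (52.5 ± 3.48 CPM) and superficial epileptic (52.2 ± 4.35) came before deep epileptic (46.7 ± 3.58) and deep control (43.4 ± 2.59; SD, n = 3 each). Neighbours differed by more than their SDs only between the superficial and the deep pair. For Slc32a1 the order was superficial epileptic (22.4 ± 1.13 CPM), deep epileptic (21.0 ± 4.02), superficial control (19.1 ± 1.85) and deep control (17.8 ± 1.08), with each step smaller than the larger SD of its neighbours. For Gad1, superficial epileptic libraries (141 ± 13.4 CPM) stood above the other 3 groups, which all averaged 127 CPM. This gap lay within the SD of deep epileptic libraries (17.9 CPM) and was about the size of the superficial epileptic SD. It exceeded the SDs of superficial and deep control libraries (5.92 and 5.54 CPM). For Gad2 the epileptic means (213 ± 34.9 CPM in superficial and 219 ± 47.2 in deep libraries) stood above the control means (192 ± 6.56 and 197 ± 4.75) by less than the epileptic SDs. For Cnr1 the order was superficial control, superficial epileptic, deep control and deep epileptic, with each step smaller than the larger SD of its neighbours.

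A ratio of 2 genes within a library does not depend on how libraries are scaled, so each gene was also set against Gad1. The ratios are of read counts without correction for length, and only their change between libraries is read. The log2 ratio of Gad2 to Gad1 lay between 0.56 and 0.69 in all 6 control libraries. In epileptic rats 1, 2 and 3 it was 0.80, 0.74 and 0.20 in superficial libraries and 1.09, 0.74 and 0.46 in deep libraries. Rats 1 and 2 lay above every control library and rat 3 below every one, in both sublayers. The counting SE of these ratios in epileptic libraries was 0.031 to 0.040, which covers the sampling of reads and not the spread between rats. Averaged per rat it was 0.67 ± 0.32 in epileptic and 0.61 ± 0.02 in control rats (SD, n = 3 each; two-sided p = 0.7 by exact permutation, adjusted p = 0.8 over 4 ratios). With 3 against 3 rats this test cannot give less than 0.1.

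The ratio of Cnr1 to Gad1 also spread among epileptic rats, at 1.61, 1.15 and 0.77 in superficial and 1.63, 1.03 and 0.69 in deep libraries of rats 1, 2 and 3. In control rats it was 1.65, 1.68 and 1.33 in superficial and 1.23, 1.49 and 1.06 in deep libraries. Rat 3 lay below every control in both sublayers. Rat 2 lay below every control library in deep CA1, and in superficial CA1 below the superficial controls only. Rat 1 lay inside the range of the 6 control libraries, 1.06 to 1.68, although above all deep ones in its deep library. Averaged over sublayers it was 1.15 ± 0.45 in epileptic and 1.41 ± 0.20 in control rats (SD, n = 3 each; exact permutation test, p = 0.5, adjusted p = 0.8). The ratio of Slc32a1 to Gad1 was −2.63 ± 0.13 in epileptic and −2.79 ± 0.09 in control rats (SD, n = 3 each; exact permutation test, p = 0.2, adjusted p = 0.8).

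Pvalb against Gad1 spread less in epileptic libraries (−1.54 to −1.38) than in control libraries (−1.63 to −1.17). In control rats 1, 2 and 3 it was −1.21, −1.17 and −1.46 in superficial libraries, against −1.63, −1.45 and −1.59 in deep libraries, higher in superficial in each rat. In epileptic rats 1, 2 and 3 it was −1.42, −1.40 and −1.49 in superficial libraries, against −1.38, −1.54 and −1.40 in deep libraries, higher in superficial in rat 2 alone. Over all 6 rats the ratio was higher in superficial CA1 in 4, by 0.14 on average (two-sided p = 0.125 by exact sign flips, adjusted p = 0.25 over 4 ratios). For Cnr1 it was higher in 5 of 6 rats, by 0.17 (p = 0.0625, adjusted p = 0.25, exact sign-flip permutation test). The smallest value this test can give is 0.03125.

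**Figure D4:**
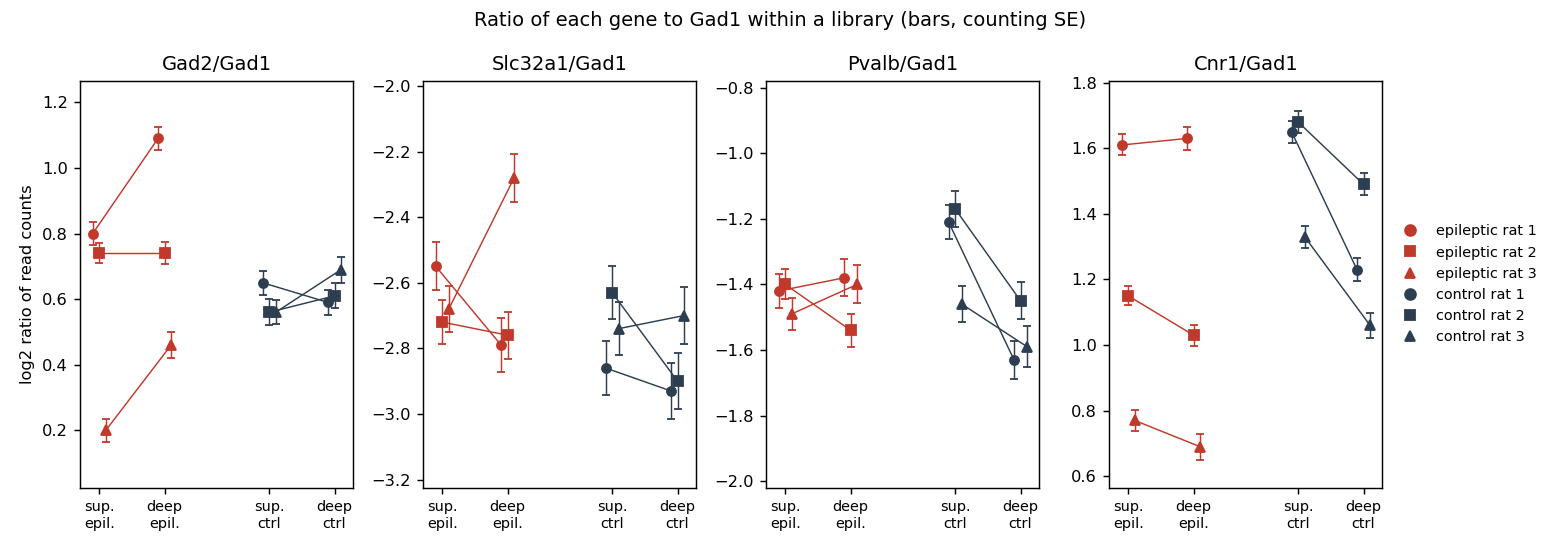
Log2 ratio of the reads of each gene to those of Gad1 in every library, with bars for the counting SE, lines joining the sublayers of a rat and axes of equal height. For Gad2 the control libraries lie within 0.56 to 0.69, and the epileptic libraries spread from 0.20 to 1.09 above and below them.

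The members did not share 1 pattern over the 12 libraries. Likeness was measured as the root mean square difference in log2 CPM over 12 libraries after each gene was centred on its mean. Gad1 was closer to Pvalb (0.13, rank 439 of 14790 identifiers) than to Slc32a1 (0.165, rank 2003), Gad2 (0.204, rank 4500) or Cnr1 (0.331, rank 10166). The identifiers nearest to Gad1 with a mean log2 CPM of at least 3 were ENSRNOG00000032929 (0.059) and ENSRNOG00000018691 (0.075), where the SD of Gad1 itself was 0.124. This SD is also the distance of Gad1 from a gene that does not vary, and every other member lay farther away. The measure grows with the spread of the other gene, whose SD was 0.14 for Pvalb, 0.183 for Gad2, 0.19 for Slc32a1 and 0.287 for Cnr1. The order of the members thus does not show which of them follows Gad1 best. The 12 libraries come from 6 rats and are not independent, so these values carry no test.

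Gad1 and Gad2 make the same transmitter from separate genes, and their promoters are shown because the ratio of their reads is described above. Both sequences are the 58 bases before the annotated gene start in RefSeq on build GRCr8, plus strand, at chr3:75777202-75777259 for Gad1 and chr17:89671660-89671717 for Gad2, with capitals for the motif TATAAA.
Gad1: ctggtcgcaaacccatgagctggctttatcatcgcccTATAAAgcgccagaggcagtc
Gad2: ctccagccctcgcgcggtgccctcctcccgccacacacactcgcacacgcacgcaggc
On either strand, TATAAA was found once in the Gad1 stretch and not in that of Gad2. Background values for 33469 RefSeq promoters come from the 58 bases that end 250 bases into each promoter window. TATAAA occurs there in 3.6%. The annotated gene start lies 250 bases into the window for Gad2 but 58 bases into it for Gad1. The Gad1 stretch is thus all of its window before that start, at another position than the background. CCAAT (9.4% of promoters) and GGGCGG (14.5%) were in neither the Gad1 nor the Gad2 stretch. G and C made up 55.2% of the Gad1 and 74.1% of the Gad2 stretch, with a median of 53.4% over all promoters. No measurement here bears on what binds these stretches.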

How the data were processed

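Raw read counts per Ensembl gene identifier were deposited by the authors, 1 table per library, as whole numbers without normalization. STAR 2.5.0c, HTSeq 0.6.1, SAMtools 0.1.19 and FastQC 0.11.3 and the build Rnor_6.0 are named in the submitters' processing notes. Their settings, strand use included, are not given in the sources used here. Reads of overlapping or antisense genes may therefore be mixed. The 5 HTSeq tallies per table were left out of library sizes. The 5 genes were chosen, and the tests set, with earlier results of these data known.

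The tests were run with edgeR 4.0.16 in R 4.3.3: filterByExpr (minimum count 10, minimum total 15), TMM scaling and the quasi-likelihood test with robust dispersions, fitted on all identifiers kept, with Benjamini-Hochberg adjustment over all of them and a threshold of 0.05. Epilepsy was tested in the 6 libraries of each sublayer without a block, and sublayers in all 12 libraries with a term for each rat. The SE is the absolute log2 fold change divided by the square root of F, an approximation, and 95% intervals use it with the test's degrees of freedom. For epilepsy, edgeR's p-values set a difference against the spread between the 3 rats per condition. For sublayers they set it against the spread of the within-rat difference in rats of both conditions. The estimate of spread also draws on all identifiers, with 8.08 to 8.85 degrees of freedom for the members in epilepsy tests and 15.3 in sublayer tests. The counting SE covers the sampling of reads only. DESeq2 1.42.0 and limma 3.58.1 served as alternatives. Log2 CPM used a prior count of 2, and ratios a pseudocount of 0.5. The edgeR fits for epilepsy and for sublayers in control rats were tested on simulated data. These data were drawn without a level shared by the libraries of 1 rat.

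Both sublayers were cut from 1 brain per rat, as the labels' protocols describe, and the deviations of the 2 libraries of a rat from their group means correlated across identifiers at 0.316 to 0.77. For control and epileptic libraries of 1 number, from different rats, the correlations were 0.218, 0.104 and 0.244 for deep libraries, against 0.212, 0.00252 and 0.17 for superficial ones. No libraries of the same group were duplicates (chi-square per identifier 7.29 to 124), and pairs from different groups were not compared in this way. All member genes were named. At most 2 identifiers nearest to Gad1 were named, by the smallest root mean square difference. Lists of other GABA, cannabinoid and cell type genes were not analysed here, since 0 of 32662 identifiers could be paired with a symbol from the gene table at hand. RefSeq promoters were matched by symbol for Gad1, Gad2, Slc32a1 and Pvalb.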

Additional observations from a re-analysis of the deposited data

How the results depend on the processing

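With 3 rats per condition, calls of 1.2-fold differences depended on the test and on single rats, and the cause was not tested. For superficial over deep in control rats the count of called members was 2, and it was 0 without the rat as a block, 1 with a random animal effect and 0 to 2 without 1 rat. In epileptic rats it was 0, and it was 1 with RLE scaling, 1 with no low-count filter, 2 with the share outside exons as covariate and 0 to 1 without 1 rat. The counts of 0 for epileptic over control in either sublayer, and for the difference between sublayer effects, were 0 in all alternatives run, the replicate block for epileptic over control included. The replicate block pairs control and epileptic rats that share only a number, and it changed no call of a member there. Over all identifiers, called numbers ranged from 0 to 2171 in deep (reported value 0) and from 0 to 1789 in superficial CA1 (2) for epilepsy. They ranged from 5 to 2523 for sublayers in control rats (1248), from 5 to 2585 in epileptic rats (1484) and from 0 to 178 for the difference (0).

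Signs turned for members that had not passed. With the share outside exons as covariate, epileptic over control log2 fold changes were −0.0971 for Gad1, −0.0759 for Slc32a1 and 0.204 for Cnr1 in deep CA1, and −0.1769 for Pvalb and 0.0158 for Cnr1 in superficial CA1. Superficial over deep values in control rats were 0.0565 for Gad1, 0.0357 for Gad2 and −0.0792 for Slc32a1, and the difference for Gad2 was −0.0386, in that fit. Gad1 in deep CA1 was −0.0049 with the replicate block and −0.0075 with a random animal effect, Pvalb in superficial CA1 −0.0043 with the random effect, and the Slc32a1 difference −0.009 with quality weights. Without 1 rat, epileptic over control ranged from −0.1175 to 0.081 for Gad1 and −0.3024 to 0.0962 for Cnr1 in deep CA1, and from −0.0362 to 0.0958 for Pvalb in superficial CA1. Superficial over deep ranged from −0.0657 to 0.0501 for Gad1 in control rats, and from −0.0951 to 0.0278 for Gad2 and −0.0199 to 0.1789 for Slc32a1 in epileptic rats. The difference ranged from −0.0436 to 0.0788 for Gad2 and from −0.1058 to 0.1026 for Slc32a1.

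Ratios to Gad1 kept their direction with a pseudocount of 5, and exact sign flips with the replicate block gave p = 0.25 to 1, where 3 pairs cannot give less than 0.25. Without 1 rat, epileptic over control for Gad2/Gad1 ranged from −0.08 to 0.23 over both sublayers, −0.03 to 0.29 in deep and −0.12 to 0.18 in superficial CA1. It ranged from −0.08 to 0.03 for Pvalb/Gad1 over both sublayers and from −0.40 to 0.07 for Cnr1/Gad1 in deep CA1. Superficial over deep for Slc32a1/Gad1 ranged from −0.02 to 0.11. The identifiers nearest to Gad1 were unchanged with RLE scaling.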
